A study of Mus musculus with 27 samples.

Results

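The cyclin-dependent kinase (CDK) inhibitors are the 7 mouse genes Cdkn1a, Cdkn1b, Cdkn1c, Cdkn2a, Cdkn2b, Cdkn2c and Cdkn2d. They were taken by gene symbol from the RNA-seq count table, where they were 7 of 51906 genes, and from 4 single cell count matrices, where they were 7 of 32285 genes. All 7 members passed the filter on low counts in RNA-seq. The RNA-seq data are 8 libraries of cultured hair follicle stem cells (HFSCs) in 4 groups of 2 libraries each: wild-type in FBS, wild-type in atRA+PKCi, Rxra cKO in FBS and Rxra cKO in atRA+PKCi. The same 2 mice of a genotype gave both of its media. The single cell data are back skin of 2 wild-type mice in the last stage of hair growth (AnaVI, postnatal day 32) and HFSCs cultured from the same 2 mice.

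FBS stands for medium with fetal bovine serum. In atRA+PKCi, serum was replaced by the B-27 supplement, and all-trans-retinoic acid (atRA) and an inhibitor of protein kinase C (PKCi) were added, so that a difference between the media covers the removal of serum as well as both agents. The lines of the RNA-seq libraries came from skin in the resting phase (telogen, postnatal day 55) and had been set up on inactivated feeder cells. Rxra cKO lines carry floxed alleles of Rxra, the retinoid X receptor alpha gene, with a Sox9-CreER driver and a YFP reporter. Wild-type mice are listed by the paper as a source of lines apart from the driver and reporter crosses. The labels of the wild-type libraries used here do not say whether these carried the driver or the reporter. The 8 libraries held between 25150265 and 35879777 estimated counts. Each line is 1 mouse, and p-values measure the spread between 2 mice per group, so that genotype, line and strain background cannot be told apart. Rxra itself was at 97.2 and 95.7 CPM (counts scaled to a common library total) in the Rxra cKO FBS libraries and at 149 and 122 CPM in wild-type FBS, and at 148 and 145 CPM in Rxra cKO against 147 and 143 CPM in wild-type with atRA+PKCi. Gene-level counts include exons that the deletion leaves in place, so these values do not check the genotype labels.

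The labelled cell type was checked against its markers. Krt14, a keratin of basal keratinocytes, lay between 5718 and 22350 CPM in the 8 libraries, and Sox9, an HFSC transcription factor, between 70.1 and 173 CPM. Other genes of HFSCs in skin were mixed. Krt15, a keratin of these cells, was between 3.65 and 8.23 CPM in the FBS libraries, at 4576 and 4430 CPM in wild-type atRA+PKCi and at 251 and 245 CPM in Rxra cKO atRA+PKCi, and Foxp1 was between 86.8 and 140.3 CPM. Lhx2 and Lgr5 were each at or below 0.186 CPM in every library, and Cd34 was at or below 2.91 CPM. The 6 fibroblast markers of the lists used here summed to between 1.32 and 11.6 CPM, with Pdgfra or Col1a1 the most abundant and Lum at 0 in every library.

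CDK inhibitors are small proteins that bind cyclin-CDK complexes and hold cells before S phase or out of the cycle. The CIP/KIP family (Cdkn1a, Cdkn1b, Cdkn1c, encoding p21, p27 and p57) binds CDK complexes broadly, and the INK4 family (Cdkn2a, Cdkn2b, Cdkn2c, Cdkn2d, encoding p16INK4a, p15INK4b, p18INK4c and p19INK4d) binds the D-type cyclin kinases CDK4 and CDK6, which act on the retinoblastoma protein. Differentiating epithelial cells leave the cycle with high p21, p27 or p57, while the locus of Cdkn2a and Cdkn2b is known as silent in young tissue and as switched on when mouse cells are kept in culture and become senescent. Senescence itself was not measured in these data.

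Cdkn2a and Cdkn2b are neighbours on chromosome 4, at chr4:89274471-89294653 and chr4:89306299-89311039, both on the minus strand with 11645 bases between them (GENCODE M21, GRCm38). Cdkn2a has a start for p16INK4a and another, 12427 bases upstream by RefSeq, for p19ARF, an activator of p53 read in another frame. The counts are per gene symbol, and p16INK4a and p19ARF were not told apart. Cdkn2c lies on the same chromosome at chr4:109660876-109667189, minus strand. Cdkn1a lies at chr17:29090976-29100727 on the plus strand, with RefSeq starts 2790 bases apart, and Cdkn1b at chr6:134920401-134925513, plus strand. Cdkn1c lies at chr7:143458339-143461050, minus strand, with the antisense gene Gm44732 over it, and Cdkn2d at chr9:21288410-21291407, minus strand.

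The windows of 250 bases before the starts of Cdkn1a, of the p16INK4a transcript of Cdkn2a and of Cdkn2b are shown because these 3 genes were the members higher in cultured cells than in skin. Sequences are from RefSeq on GRCm38.p6, which gave a window for 6 of 7 members (all but Cdkn1c), 5′ to 3′ on the gene's strand, with capitals marking a match on either strand to AGGTCA (a half-site of nuclear receptors), GGGCGG (the GC box) or CATG, any 6 bases and CATG again (the cores of paired p53 half-sites).
Cdkn1a upstream start, chr17:29090729-29090978, plus strand: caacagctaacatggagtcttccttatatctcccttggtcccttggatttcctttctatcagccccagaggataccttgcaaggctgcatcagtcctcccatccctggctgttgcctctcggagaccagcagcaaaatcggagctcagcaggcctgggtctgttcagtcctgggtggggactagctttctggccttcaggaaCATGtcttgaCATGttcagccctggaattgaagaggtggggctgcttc
Cdkn1a downstream start, chr17:29093519-29093768, plus strand: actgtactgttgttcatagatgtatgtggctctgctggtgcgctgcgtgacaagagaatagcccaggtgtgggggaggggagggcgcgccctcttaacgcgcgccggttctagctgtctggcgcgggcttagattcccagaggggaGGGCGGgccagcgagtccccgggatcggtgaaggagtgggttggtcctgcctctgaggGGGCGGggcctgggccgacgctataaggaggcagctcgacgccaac
Cdkn2a p16INK4a start, chr4:89282193-89282442, minus strand: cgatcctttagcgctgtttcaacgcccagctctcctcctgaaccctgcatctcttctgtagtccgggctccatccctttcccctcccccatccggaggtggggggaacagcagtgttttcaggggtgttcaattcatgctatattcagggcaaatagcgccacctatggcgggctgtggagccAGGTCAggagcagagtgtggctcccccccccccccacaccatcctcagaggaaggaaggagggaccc
Cdkn2b start, chr4:89311033-89311282, minus strand: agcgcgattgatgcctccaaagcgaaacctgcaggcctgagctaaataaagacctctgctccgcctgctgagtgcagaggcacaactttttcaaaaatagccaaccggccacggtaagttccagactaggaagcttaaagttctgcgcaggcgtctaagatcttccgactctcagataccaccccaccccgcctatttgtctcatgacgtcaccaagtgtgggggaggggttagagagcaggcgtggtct

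The upstream Cdkn1a window held the paired p53 cores 48 bases before the start, letters found in 0.49% of the 32851 RefSeq windows of that length. The downstream Cdkn1a window held GGGCGG at 46 and 104 bases, which 32.7% of windows hold at least once. The p16INK4a window held AGGTCA 67 bases before the start, which 14.0% of windows hold. None of the 3 motifs was in the Cdkn2b window, and the p19ARF window (not printed) held GGGCGG at 14 and 48 bases. A match is a description of the letters and does not show a bound site.

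In the cultures, 3 patterns stood out. Cdkn2a and Cdkn2b were highest in Rxra cKO cells with atRA+PKCi, as was Cdkn1a by a narrow margin. Cdkn1b and Cdkn2d were lower in Rxra cKO than in wild-type cells in both media. Cdkn1c was higher in atRA+PKCi than in FBS in both genotypes. By edgeR's quasi-likelihood test with Benjamini-Hochberg adjustment over 15965 genes (threshold adjusted p 0.05), 5 of 7 members passed in the wild-type medium comparison (3 higher and 2 lower in atRA+PKCi), where 53.9% of all genes passed (27.2% higher and 26.6% lower). In the Rxra cKO medium comparison 4 of 7 passed, all higher in atRA+PKCi, against 43.0% of all genes (20.8% higher and 22.2% lower). Between genotypes, 5 of 7 passed in FBS (2 higher and 3 lower in Rxra cKO, against 42.8% of all genes, 22.3% higher and 20.5% lower) and 7 of 7 in atRA+PKCi (3 higher and 4 lower, against 43.2%, 23.0% higher and 20.2% lower). The medium effect itself differed between genotypes for 5 of 7 members (3 positive and 2 negative), against 24.6% of all genes (13.3% and 11.3%). The libraries of the compared groups did not overlap for 7, 6, 6 and 7 members in these 4 pairwise comparisons in turn, against 74.5%, 75.2%, 68.4% and 76.5% of all genes. With a stricter rule (adjusted p under 0.01 and a log2 change beyond 1 in size), 1 member (Cdkn1c) passed in the wild-type and 2 (Cdkn1c and Cdkn2b) in the Rxra cKO medium comparison, against 18.5% and 11.6% of all genes. Between genotypes 2 (Cdkn2a and Cdkn2d) passed in FBS and 4 (these, Cdkn1b and Cdkn2b) in atRA+PKCi, against 11% and 13.0%, and 1 (Cdkn1c) in the interaction, against 7.10%. The medium and genotype comparisons share libraries. Each gene has 4 residual degrees of freedom, and edgeR's estimate of its spread also draws on all genes tested. Small p-values rest in part on that shared estimate. In bulk cultures, a change in the number of cells that express a gene and a change in its RNA per cell cannot be told apart.

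**Figure D1:**
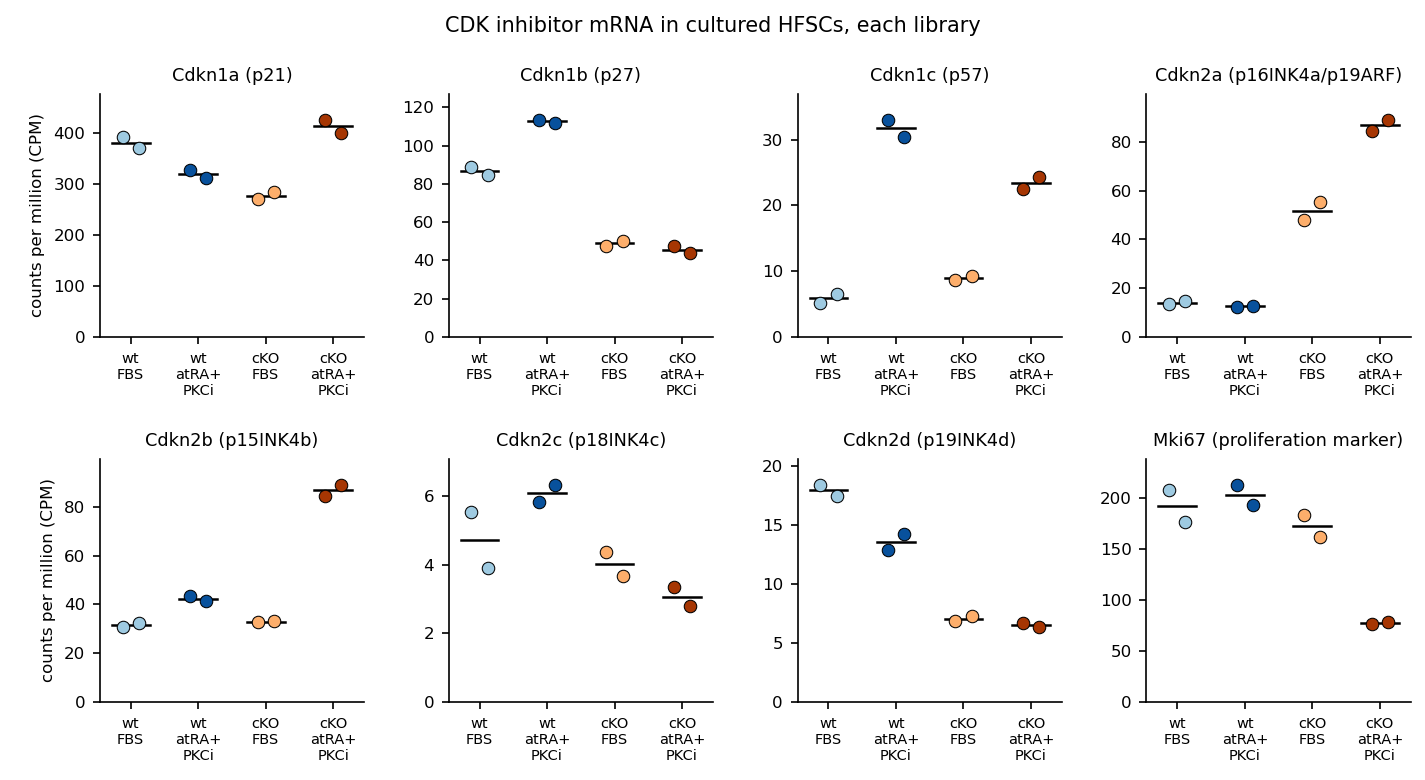
CPM of the 7 inhibitors and of Mki67 in each of the 8 RNA-seq libraries (points) with the group mean (bar), for wild-type (wt) and Rxra cKO cultures in FBS or atRA+PKCi. Cdkn1a, Cdkn2a and Cdkn2b are highest in both Rxra cKO atRA+PKCi libraries, Cdkn1a by a narrow margin, and Mki67 is lowest there.

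Of the CIP/KIP genes, Cdkn1a, the p21 gene and a target of p53, was at 392 and 371 CPM in wild-type FBS and at 327 and 313 CPM in atRA+PKCi with the same genotype. Rxra cKO cells had 271 and 284 CPM in FBS and 427 and 400.4 CPM in atRA+PKCi. The groups compared did not overlap, and their order was turned between genotypes: wild-type libraries were higher in FBS, and Rxra cKO libraries in atRA+PKCi. Between genotypes the log2 difference was -0.46 in FBS (adjusted p = 0.00107) and 0.37 in atRA+PKCi (adjusted p = 0.00305). The log2 fold change with the medium was -0.25 in wild-type (adjusted p = 0.0153) and 0.57 in Rxra cKO (adjusted p = 0.000286), and these differed (interaction 0.83, SE 0.101, adjusted p = 0.000589). Without wild-type FBS replicate 1 the wild-type change was no longer called (adjusted p = 0.0519), nor without wild-type atRA+PKCi replicate 2 (adjusted p = 0.0983).

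Cdkn1b, the p27 gene, was at 89.1 and 84.8 CPM in wild-type FBS, 114 and 112 CPM in wild-type atRA+PKCi, 47.5 and 50.3 CPM in Rxra cKO FBS and 47.7 and 43.7 CPM in Rxra cKO atRA+PKCi. All 4 Rxra cKO libraries lay below all 4 wild-type libraries. The genotype difference was -0.83 (SE 0.0706, adjusted p = 3.43e-05) in FBS and -1.30 (SE 0.0706, adjusted p = 2.16e-06) in atRA+PKCi. The medium raised Cdkn1b by 0.38 in wild-type (adjusted p = 0.00172), while the change in Rxra cKO was -0.10 (adjusted p = 0.304). The interaction was -0.47 (adjusted p = 0.00901), and it lost its call without Rxra cKO atRA+PKCi replicate 2 (adjusted p = 0.0576) or without wild-type atRA+PKCi replicate 1 (adjusted p = 0.0504).

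Cdkn1c, the p57 gene, was at 5.22 and 6.57 CPM in FBS and 33.0 and 30.4 CPM in atRA+PKCi in wild-type cells, higher by 2.43 on the log2 scale (5.39-fold, adjusted p = 6.12e-07). In Rxra cKO it was at 8.63 and 9.33 CPM in FBS and 22.5 and 24.3 CPM in atRA+PKCi, a log2 fold change of 1.38 (2.60-fold, SE 0.116, adjusted p = 2.86e-05). The groups did not overlap, and the Rxra cKO libraries lay above wild-type in FBS and below it in atRA+PKCi. The rise was smaller in Rxra cKO (interaction -1.05, SE 0.167, adjusted p = 0.00241). The lower level of Rxra cKO in atRA+PKCi (-0.44, adjusted p = 0.0108) was not called without Rxra cKO atRA+PKCi replicate 1 (adjusted p = 0.127) or wild-type atRA+PKCi replicate 1 (adjusted p = 0.0969).

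Of the INK4 genes, Cdkn2a showed the largest genotype difference among the members in both media. It was at 13.3 and 14.6 CPM in wild-type FBS and at 12.3 and 12.7 CPM in wild-type atRA+PKCi, against 47.9 and 55.2 CPM in Rxra cKO FBS and 84.5 and 89.1 CPM in Rxra cKO atRA+PKCi. All Rxra cKO libraries lay above all wild-type libraries, and the 2 with atRA+PKCi were highest. The genotype difference was 1.88 (3.69-fold, SE 0.0934, adjusted p = 2.08e-06) in FBS and 2.80 (6.94-fold, SE 0.0940, adjusted p = 1.8e-07) in atRA+PKCi. The medium raised Cdkn2a by 0.75 in Rxra cKO (adjusted p = 0.000163), and the wild-type change was -0.16 (adjusted p = 0.198), with an interaction of 0.91 (SE 0.13, adjusted p = 0.00135). With 2 lines per genotype, a Cdkn2a level that differs between lines cannot be told apart from one that differs with Rxra.

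Its neighbour Cdkn2b, the p15INK4b gene, was at 30.8 and 32.2 CPM in wild-type FBS, 43.4 and 41.2 CPM in wild-type atRA+PKCi, 32.7 and 33.3 CPM in Rxra cKO FBS and 84.6 and 89.1 CPM in Rxra cKO atRA+PKCi. In FBS the genotypes lay close together, with a difference of 0.07 (SE 0.0694, adjusted p = 0.491), and in atRA+PKCi the Rxra cKO libraries stood 2.05-fold above wild-type (log2 1.04, adjusted p = 5.98e-06). The medium raised it in both genotypes, by 0.43 in wild-type (adjusted p = 0.000826) and by 1.4 in Rxra cKO (adjusted p = 1.32e-06), and by more in Rxra cKO (interaction 0.97, SE 0.0963, adjusted p = 0.000203). Cdkn2a and Cdkn2b thus had different patterns in FBS, where only the first differed between genotypes by its own test, and whether their differences differ from each other was not tested.

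The other INK4 genes, Cdkn2c and Cdkn2d, encode p18INK4c and p19INK4d. Cdkn2d was at 18.4 and 17.5 CPM in wild-type FBS, 12.9 and 14.2 CPM in wild-type atRA+PKCi, 6.83 and 7.29 CPM in Rxra cKO FBS and 6.68 and 6.37 CPM in Rxra cKO atRA+PKCi. All Rxra cKO libraries lay below all wild-type libraries, with differences of -1.34 in FBS (SE 0.105, adjusted p = 2.27e-05) and -1.05 in atRA+PKCi (adjusted p = 7.16e-05). With the medium it was lower in wild-type (-0.40, adjusted p = 0.00847), a call lost with limma on the deposited normalized counts (adjusted p = 0.061). Cdkn2c was at 5.55 and 3.9 CPM in wild-type FBS and 4.39 and 3.66 CPM in Rxra cKO FBS, with Rxra cKO atRA+PKCi lowest at 3.35 and 2.79 CPM and wild-type atRA+PKCi highest at 5.84 and 6.34 CPM, a difference of -0.98 (SE 0.210, adjusted p = 0.00526). Its other comparisons did not pass, and in FBS the genotypes overlapped.

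**Figure D2:**
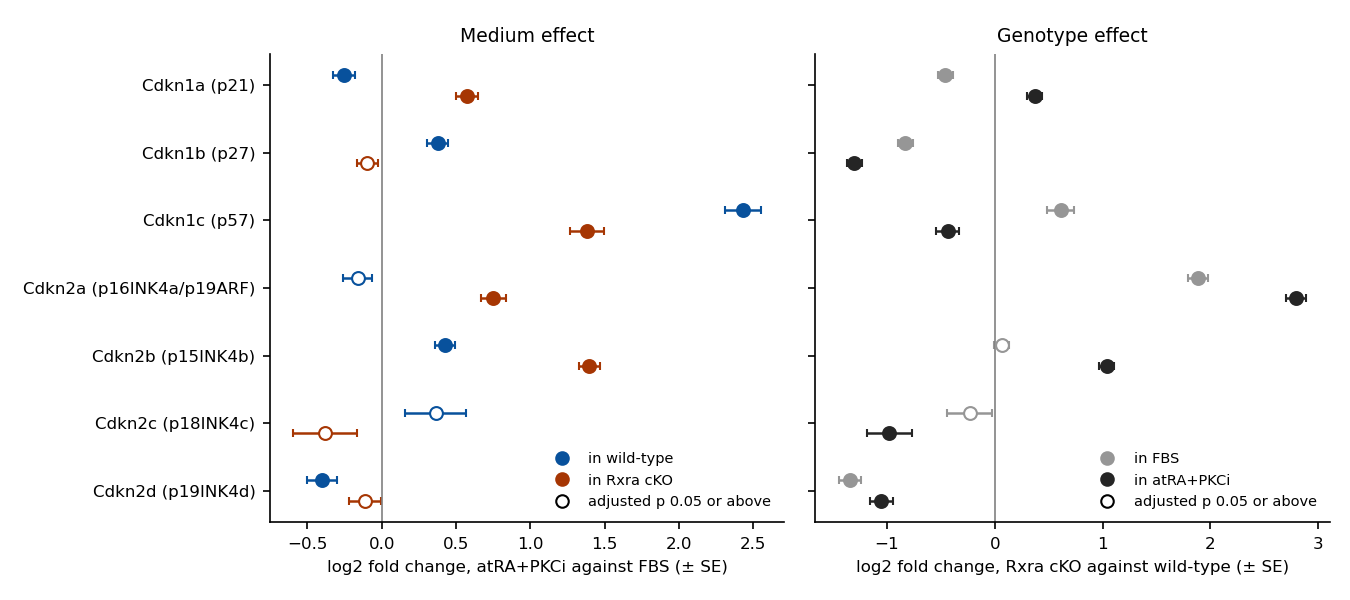
Log2 fold changes (points) with standard errors (bars) of the 7 inhibitors, left for atRA+PKCi against FBS in wild-type and in Rxra cKO, right for Rxra cKO against wild-type in FBS and in atRA+PKCi. Open points did not pass an adjusted p of 0.05, and Cdkn2a in the right panel lies furthest from 0, at 1.88 and 2.80.

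Per kilobase of exon, which allows levels of different genes to be set side by side, Cdkn1a was highest in all 4 groups (means of 78.2 to 117 CPM per kb) and Cdkn2c lowest (1.15 to 2.27 CPM per kb). Cdkn2a had rank 2 of 7 in Rxra cKO, at 44.0 CPM per kb in FBS and 74.1 in atRA+PKCi, and ranks 4 and 5 in wild-type, at 12 and 10.7. Neighbours in the order whose ranges overlapped were Cdkn2a and Cdkn2d in wild-type FBS and Cdkn2d and Cdkn1c in Rxra cKO FBS. In wild-type, Cdkn2b (22.7 in FBS, 30.5 in atRA+PKCi) and Cdkn1b (19.1 and 24.8) followed Cdkn1a.

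The proliferation genes were lowest in the group in which Cdkn1a, Cdkn2a and Cdkn2b were highest and Cdkn1b, Cdkn2c and Cdkn2d had their lowest means. Mki67, a marker of cycling cells, was at 208 and 177 CPM in wild-type FBS, 213 and 193 CPM in wild-type atRA+PKCi, 184 and 162 CPM in Rxra cKO FBS and 77.1 and 78.3 CPM in Rxra cKO atRA+PKCi, so that only the last group stood apart. Of 20 G2/M genes, 20 fell with atRA+PKCi in Rxra cKO (median -1.13, against 0.016 for all genes tested), among them Bub1 (2.84-fold lower) and Ccnb1 (2.72-fold lower), a kinase and a cyclin of mitosis. In wild-type 3 rose and 8 fell (median -0.21, against 0.034). Of 19 G1/S genes, 14 fell and 0 rose in Rxra cKO (median -0.55), and 3 fell and 5 rose in wild-type (median 0.10). The interaction passed for 19 of 20 G2/M genes and 14 of 19 G1/S genes, all negative. Set against wild-type within FBS, Rxra cKO showed 13 of 19 G1/S genes raised and 1 reduced (median 0.41, against 0.015). Of the G2/M list, 8 were raised and 4 reduced (median 0.17). In this comparison Cdkn2a was up and Cdkn1b and Cdkn2d were down, and a link between the inhibitors and the cycle genes was not tested. With atRA+PKCi this genotype comparison gave 0 raised and 9 reduced for G1/S, and 0 raised and 19 reduced for G2/M.

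Of the kinases and cyclins that the INK4 proteins act on, Cdk4 was at 250 and 267 CPM in wild-type FBS and 386 and 378 CPM in wild-type atRA+PKCi (0.56, adjusted p = 0.000133), and between 305 and 373 CPM in Rxra cKO. Ccnd1, cyclin D1, was at 246 and 247 CPM in wild-type FBS, 468 and 459 CPM in wild-type atRA+PKCi and between 593 and 697 CPM in the 4 Rxra cKO libraries. Ccnd1 was thus higher in Rxra cKO than in wild-type in both media (1.37 in FBS and 0.56 in atRA+PKCi, both passing), in the same libraries in which Cdkn2a was higher. Of 13 pocket proteins and E2F factors, the layer below these kinases, 6 were lower and 0 higher in Rxra cKO with atRA+PKCi (median -0.26, against 0.002), led by Rbl1 (2.60-fold lower), which encodes the pocket protein p107. In FBS 3 were higher and 4 lower (median -0.20, against 0.015), with Rbl1 1.66-fold lower.

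Cdkn1a has p53 as its best known activator, and the p53 family and its other targets were described as a list of 21 genes. In wild-type 15 rose and 4 fell with atRA+PKCi (median 0.69), and in Rxra cKO 17 rose and 2 fell (median 0.73). Of all genes, 27.2% rose and 26.6% fell in wild-type, and 20.8% and 22.2% in Rxra cKO. Mdm2, whose product degrades p53, was at 98.3 and 106 CPM in wild-type FBS and 207 and 219 CPM in wild-type atRA+PKCi, and went from 145 and 150 CPM to 275 and 263 CPM in Rxra cKO. Ccng1, cyclin G1, rose from 296 and 332 to 1029 and 1172 CPM in wild-type. Cdkn1a, by contrast with these 2 targets, fell in wild-type and rose in Rxra cKO. Perp, a desmosome gene and p53 target, fell in both genotypes (3.21-fold lower in wild-type and 1.62-fold lower in Rxra cKO). Trp53 itself did not pass in either medium comparison (0.16 and 0.07) and was higher in Rxra cKO in both media (0.65 and 0.56).

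Regulators of the Ink4/Arf locus, among them Polycomb proteins that silence it, were measured as 18 tested genes. In Rxra cKO against wild-type, 3 were higher and 9 lower in FBS (median -0.20) and 2 higher and 9 lower in atRA+PKCi (median -0.27). Of all genes, 22.3% were higher and 20.5% lower in FBS, and 23.0% and 20.2% in atRA+PKCi. Id1, which encodes an inhibitor of the ETS factors that activate p16INK4a, was at 100.4 and 101 CPM in wild-type FBS, 125 and 139 CPM in wild-type atRA+PKCi, 54.7 and 53.7 CPM in Rxra cKO FBS and 31.4 and 34.9 CPM in Rxra cKO atRA+PKCi. It was thus lowest where Cdkn2a was highest. Ezh2, the Polycomb methyltransferase, differed between genotypes by -0.58 in atRA+PKCi (adjusted p = 0.00146) and by -0.10 in FBS (adjusted p = 0.46). Hmga2, a chromatin protein known to hold Cdkn2a down in stem cells, fell with atRA+PKCi in both genotypes, from 258 and 259 to 47.5 and 44.3 CPM in wild-type and from 736 and 653 to 56.8 and 60.5 CPM in Rxra cKO.

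Of 9 tested genes for supply and turnover of p27, 2 were higher and 2 lower in Rxra cKO in FBS, and 1 higher and 1 lower in atRA+PKCi. Among all genes tested the shares were 22.3% higher and 20.5% lower in FBS, and 23.0% and 20.2% in atRA+PKCi. The p27 counts thus do not stand above those of all genes. Cks1b, a cofactor of the SCF-SKP2 ligase that degrades p27, was higher in Rxra cKO in both media (1.82-fold and 1.39-fold), while Foxo3 and Foxo4, activators of Cdkn1b, were lower in FBS (1.39-fold and 1.61-fold). Of 9 other promoter regulators of inhibitors, 2 were higher and 4 lower in Rxra cKO in FBS and 2 higher and 3 lower in atRA+PKCi. Myc, which represses Cdkn2b and Cdkn1a through ZBTB17, was at 102 and 87.6 CPM in wild-type FBS and 69.5 and 67.8 CPM in Rxra cKO FBS, and at 95.4 and 93.9 CPM in wild-type atRA+PKCi and 114 and 116 CPM in Rxra cKO atRA+PKCi, where Cdkn2b was highest.

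A pair of lists read beside inhibitors in senescent cells were counted too. Of 15 tested secretory genes associated with senescence, 10 were higher and 3 lower in Rxra cKO than in wild-type with atRA+PKCi (median 1.70, against 0.002), and 4 higher and 7 lower in FBS (median -0.20). Ccl2, a chemokine, was at 0.385 and 0.285 CPM in wild-type atRA+PKCi and 36.2 and 35.2 CPM in Rxra cKO atRA+PKCi, and Ccl20, another chemokine, at 0.577 and 0.507 against 34.8 and 32.8 CPM. Igfbp3, an IGF binding protein and far more abundant, went the other way, at 1743 and 1634 against 526 and 545 CPM, and the list's summed level was lower too, at 2267 and 2153 CPM in wild-type against 1293 and 1332 CPM in Rxra cKO. With the medium the list fell in both genotypes (1 higher and 13 lower in wild-type, 2 higher and 10 lower in Rxra cKO), led by the collagenase and stromelysin genes Mmp13 and Mmp3. Mmp13 went from 2210 and 2387 to 0.642 and 0.412 CPM in wild-type and from 442 and 555 to 5.40 and 5.51 CPM in Rxra cKO. The 3 nuclear proteins known to fall in senescence, Hmgb1, Hmgb2 and Lmnb1, were all lower in Rxra cKO atRA+PKCi than in wild-type atRA+PKCi (median -0.55), where Hmgb2 was at 40.7 and 42.1 against 92.5 and 94.6 CPM. Between genotypes in FBS, 0 of 3 passed by edgeR. With atRA+PKCi, 19 of 20 G2/M genes were lower in Rxra cKO too, and the part of cycling cells in the fall of these 3 genes was not tested.

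Markers of other cell states moved in the same libraries. The 6 suprabasal epidermis markers summed to 2155 and 2314 CPM in wild-type FBS, 76.4 and 82.2 CPM in wild-type atRA+PKCi, 1053 and 1327 CPM in Rxra cKO FBS and 478 and 433 CPM in Rxra cKO atRA+PKCi, and 6 of 6 were higher in Rxra cKO than in wild-type with atRA+PKCi. The 6 fibroblast markers, with Pdgfra or Col1a1 most abundant, summed to 1.32 and 4.37 CPM in wild-type atRA+PKCi and 4.45 and 5.18 CPM in Rxra cKO atRA+PKCi. Acta2 was at 14.8 and 15.2 CPM in Rxra cKO atRA+PKCi, where the mural list summed to 16.9 and 17.3 CPM, against at most 2.12 CPM in every other library. The part of these cells or states in the inhibitor differences was not tested.

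In skin, the members divided along the follicle. The 2 matrices held 16521 and 16068 barcodes, of which 13625 and 13608 cells passed the filters and the removal of called doublets, and the cells were clustered without the 7 members. The 2 skin libraries shared 62 barcodes. Of 29 clusters, 12 stayed unnamed, and several were mostly from 1 mouse, among them clusters of 2974 of 3080, 2008 of 2135 and 609 of 701 cells. Of the 4 outer root sheath-like clusters, 1 had 354 of its 448 cells from mouse 2. The sort had been described as removing cells with markers of immune, endothelial, fibroblast and melanocyte cells, yet clusters like all 4 types were present. The follicle classes were outer root sheath-like, hair matrix-like, inner root sheath-like, hair medulla-like and hair cortex-like. The 6 fibroblast markers summed to between 1812 and 2678 CPM in mouse 1 and 2830 and 3749 CPM in mouse 2 in these 5 classes, a like level in each class, and the part of free RNA in it was not tested. Levels are CPM of UMIs in the summed cells of a class, given for mouse 1 and mouse 2, as a description without a test, since the classes were made from the same cells.

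Cdkn1a was higher in the differentiating classes than in the outer root sheath and matrix. It was at 39.6 and 32.5 CPM in outer root sheath-like cells, 35.4 and 35.0 CPM in matrix-like cells, 124 and 121 CPM in inner root sheath-like cells, 171 and 184 CPM in medulla-like cells and 316 and 296 CPM in cortex-like cells. Both mice gave the same order from inner root sheath to cortex, and outer root sheath and matrix were not ordered beyond the spread between mice. An unnamed cluster with Ly6d, Krt79 and Krt77 among its 10 leading genes, chosen here after its values were seen, had 373 and 297 CPM over 306 and 297 cells. Within the outer root sheath-like class, 1 cluster led by Krt14, Pthlh and Krt17 stood at 136 and 116 CPM, and the other 3 clusters between 10.6 and 26.9 CPM.

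Cdkn1b varied less. It was at 90.6 and 89.2 CPM in outer root sheath-like, 86.6 and 83.8 in matrix-like, 81.3 and 76.3 in inner root sheath-like, 80.9 and 64.0 in medulla-like and 55.4 and 55.2 in cortex-like cells, with cortex lowest in both mice. Cdkn1c lay between 6.52 and 10.7 CPM in all 5 follicle classes, and the bulk of its UMIs came from outside the follicle epithelium: 252 and 393 CPM in fibroblast-like cells, 189.5 and 116 CPM in mural-like cells and 1865 and 922 CPM in an unnamed cluster led by Pax7, a marker of muscle stem cells. At 6.52 to 10.7 CPM, beside fibroblast markers of a like level in each class, the part of free RNA in the follicle level of Cdkn1c was not tested.

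Cdkn2a was almost absent from skin. It gave 59 UMIs in mouse 1 and 88 UMIs in mouse 2 over all cells (0.466 and 0.574 CPM), in 51 of 13625 and 74 of 13608 cells. Among the follicle classes it had at most 3 UMIs in a class and mouse, and 0 in inner root sheath-like cells of either mouse. Mural-like cells, a class that joins a cluster led by Rgs5 and another led by Acta2, were highest, at 4.35 and 1.92 CPM from 9 and 7 UMIs.

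Its neighbour Cdkn2b was measurable. It was at 9.13 and 5.30 CPM in outer root sheath-like, 2.88 and 1.85 in matrix-like, 12.8 and 11.3 in inner root sheath-like, 33.7 and 20.2 in medulla-like and 33.1 and 18.8 in cortex-like cells. Matrix was lowest and medulla and cortex were highest in both mice, with medulla and cortex not ordered beyond the spread. The outer root sheath-like cluster with high Cdkn1a also had the highest Cdkn2b of that class, at 28.5 and 17.6 CPM.

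Cdkn2c and Cdkn2d had another order, with inner root sheath highest and cortex lowest. Cdkn2c was at 35.6 and 35.9 CPM in inner root sheath-like, 27.4 and 26.0 in matrix-like, 19.6 and 19.4 in medulla-like, 11.7 and 12.6 in outer root sheath-like and 6.99 and 8.70 in cortex-like cells, the same order in both mice. Cdkn2d was at 55.2 and 39.5 CPM in inner root sheath-like, 34.4 and 20.5 in matrix-like, 33.9 and 16.8 in medulla-like, 17.3 and 16.7 in outer root sheath-like and 10.7 and 6.70 in cortex-like cells. The 20 G2/M genes were likewise high in matrix-like (3947 and 3613 CPM) and inner root sheath-like cells (3812 and 3526 CPM) and lowest in cortex-like cells (460 and 681 CPM).

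**Figure D3:**
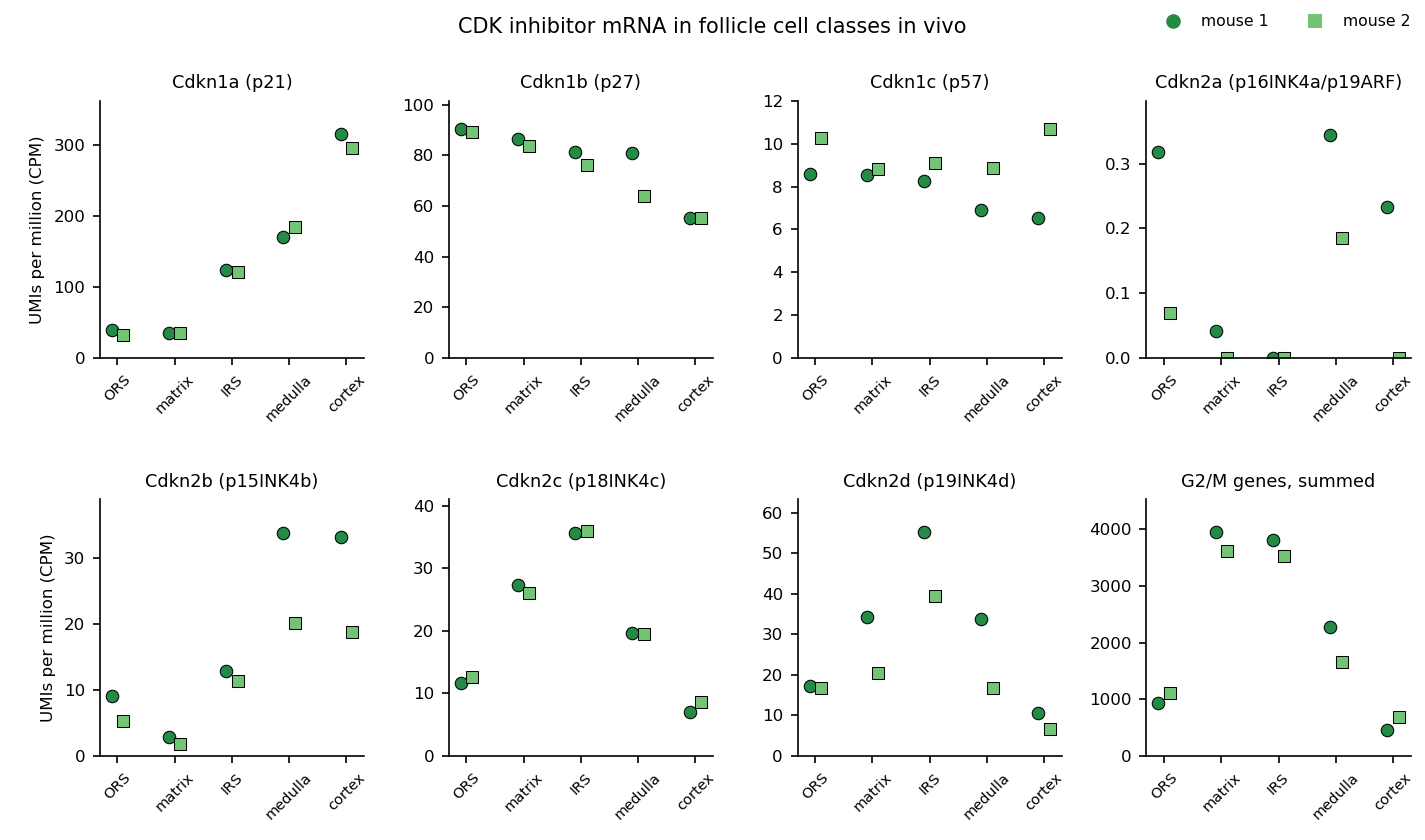
CPM of the 7 inhibitors, and of 20 G2/M genes summed, in 5 follicle cell classes of skin, for mouse 1 (circles) and mouse 2 (squares). ORS is outer root sheath-like and IRS inner root sheath-like. Cdkn1a is highest in cortex-like cells, at 316 and 296, while Cdkn2c and Cdkn2d peak in inner root sheath-like cells, and Cdkn2a is at or below 0.344 in every class.

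Cdkn1a, Cdkn2c and Cdkn2d were then set against the cell cycle within a class. Each cell was thinned to 3000 UMIs and placed in a range by its UMIs of the G1/S and G2/M genes: 0, 1 to 4, or 5 or more. The ranges are cuts of a continuous number, and between 27 and 135 cells of a class and mouse lay at the upper cut, with 4 or 5 such UMIs. Cells of 1 mouse share a library, so the values are a description. Matrix-like cells had only 10 and 5 cells in the lowest range and are left out.

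Cdkn1a was lower in the cells with most cycle UMIs in each of the other 4 classes and both mice. In inner root sheath-like cells it was at 183 and 295 CPM in cells without cycle UMIs and at 93.0 and 99.8 in cells with 5 or more. In medulla-like cells these values were 284 and 234 against 125 and 128, in cortex-like cells 344 and 287 against 170 and 124, and in outer root sheath-like cells 50.9 and 34.8 against 28.5 and 22.9. The outer root sheath-like clusters differed in Cdkn1a, as given above, and their part in each range was not tested. The class difference remained within the lowest range, where outer root sheath-like cells were below the other 3 classes in both mice.

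Cdkn2c and Cdkn2d went the other way. In outer root sheath-like cells Cdkn2d was at 20.1 and 11.6 CPM (13 and 8 UMIs) without cycle UMIs and 33.5 and 28.7 (27 and 30 UMIs) with 5 or more. In inner root sheath-like cells with 5 or more, Cdkn2d was at 63.9 and 48.0 (147 and 61 UMIs) and Cdkn2c at 40.4 and 35.4 (93 and 45 UMIs), against 10.9 and 5.70 (8 and 2 UMIs) and 5.46 and 19.9 (4 and 7 UMIs) in cells with 1 to 4. Cortex-like cells held at most 8 UMIs of either gene in a range and mouse, too few to order.

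**Figure D4:**
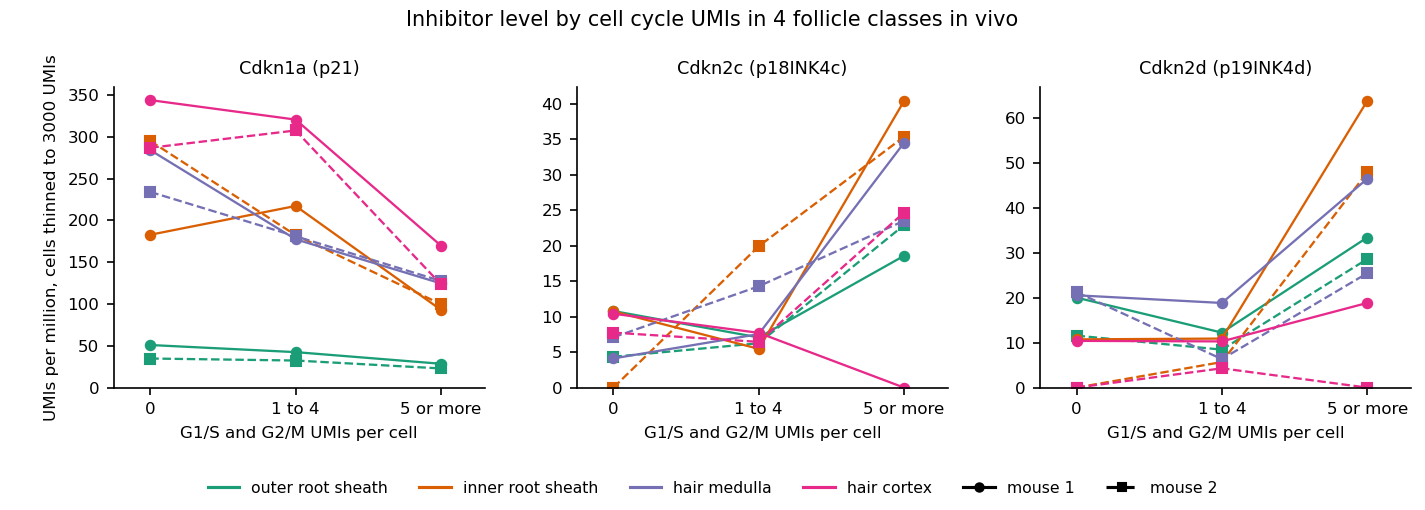
UMI levels (CPM) of Cdkn1a, Cdkn2c and Cdkn2d in cells thinned to 3000 UMIs, by the number of G1/S and G2/M UMIs per cell (0, 1 to 4, 5 or more), in 4 follicle classes (colours) of mouse 1 (solid lines) and mouse 2 (dashed lines). Every Cdkn1a line ends at its lowest value, and Cdkn2c and Cdkn2d end higher in outer root sheath-like, inner root sheath-like and medulla-like cells. For Cdkn2d in medulla-like cells of mouse 2 the ends are close, at 21.3 and 25.5 CPM (3 and 13 UMIs).

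The cultured HFSCs of the same 2 mice had been sorted as CD34+ cells and kept for 2 passages before they were divided over 7 conditions and tagged. Their matrices held 449 and 208 barcodes, of which 262 and 94 had under 10% mitochondrial UMIs. Of these, 217 and 68 were singly tagged cells of conditions with atRA+PKCi, mostly with BMP2/4 (113 and 13 cells) or Rspo+BMP2/4 (92 and 27 cells). Rspo+BMP2/4 with a retinoic acid receptor inhibitor gave 5 and 21 of the cells. All 217 and 68 cells were summed per mouse and set against the outer root sheath-like cells of skin (1260 and 1522 cells). The test was 2 sums against 2 by edgeR, with 2 residual degrees of freedom per gene and a spread estimate that also draws on all genes tested. Small p-values here rest in part on that shared estimate. Culture, library and preparation cannot be told apart here. Cultured and skin libraries shared at most 5 barcodes, and the cultured cells had Krt14 at 12260 and 11190 CPM, Sox9 at 228 and 176 CPM and Cd34 at 0 in both mice.

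In culture Cdkn2a, Cdkn1a and Cdkn2b were higher than in the outer root sheath and Cdkn2c was lower, while the other 3 members did not pass. The 4 of 7 members that passed (3 higher and 1 lower) stand against 57.5% of the 13815 genes tested, 25.1% higher and 32.4% lower (61.7% at an unadjusted p under 0.05). Under library sizes in place of TMM scaling, the median log2 difference of all genes moved from -0.14 to -0.56, and the split of calls from 3474 higher and 4471 lower to 2232 higher and 6544 lower. That alternative was chosen after seeing the data.

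Cdkn2a was nearly absent in skin and abundant in these single cell cultures, unlike in the wild-type atRA+PKCi libraries of RNA-seq (12.3 and 12.7 CPM). By UMIs, Cdkn2a was at 265 and 339 CPM in culture (1751 and 682 UMIs) and at 0.319 and 0.0698 CPM in the outer root sheath (3 and 1 UMIs). Both cultured sums lay above both skin sums by a ratio of 832 in mouse 1 (95% counting interval 284 to 4038) and 4850 in mouse 2 (868 to 191900), ratios that rest on these 3 UMIs and 1 UMI. The fitted log2 difference, which depends on the prior count of the fit, was 11.06 (SE 0.388, adjusted p = 9.87e-13), rank 20 from the highest of 13815 genes. With each cell thinned to 3000 UMIs, 47.9% and 43.6% of cultured cells had a Cdkn2a UMI, against 0.0839% and 0.0673% of outer root sheath-like cells and 0% and 0.286% of immune-like cells, and unthinned 85.3% and 72.1% of cultured cells had one.

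Cdkn1a was at 301 and 341 CPM in culture against 39.6 and 32.5 CPM in skin (log2 3.55, 11.7-fold, SE 0.225, adjusted p = 2.46e-10). The skin value pools the cluster led by Krt14, Pthlh and Krt17 with clusters of far lower Cdkn1a, as given above. The cultured level was close to that of cortex-like cells in skin (316 and 296 CPM), though the cortex-like cells had 0.233 and 0 CPM of Cdkn2a. Thinned, 51.6% and 45.5% of cultured cells, 10.3% and 7.54% of outer root sheath-like cells and 15.4% and 21.1% of immune-like cells had a Cdkn1a UMI. Unthinned, 174 of 217 cells in mouse 1 (80.2%) and 43 of 68 cells in mouse 2 (63.2%) had UMIs of both Cdkn1a and Cdkn2a. Cdkn2b was at 55.4 and 54.6 CPM in culture against 9.13 and 5.30 CPM in skin (log2 3.38, 10.4-fold, adjusted p = 2.2e-09).

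Of the remaining members, Cdkn2c was lower, at 1.21 and 2.48 CPM in culture (8 and 5 UMIs) against 11.7 and 12.6 CPM in skin (log2 -2.53, SE 0.377, adjusted p = 1.57e-05). Cdkn1b was at 53.1 and 52.6 CPM against 90.6 and 89.2 CPM, with both cultured sums below both skin sums. Its test did not pass (log2 -0.35, adjusted p = 0.114), and it passed with the mouse as a replicate block (log2 -0.36, adjusted p = 0.0357) and under library sizes (log2 -0.77, adjusted p = 0.00205). Cdkn1c, at 9.38 and 11.4 against 8.60 and 10.3 CPM, and Cdkn2d, at 16.5 and 16.4 against 17.3 and 16.7 CPM, did not pass (log2 0.52 and 0.38, adjusted p = 0.0919 and 0.141). Cdkn2d passed with tags assigned by share of counts (log2 0.55, adjusted p = 0.0282), and under library sizes its difference was -0.05 (adjusted p = 0.877).

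**Figure D5:**
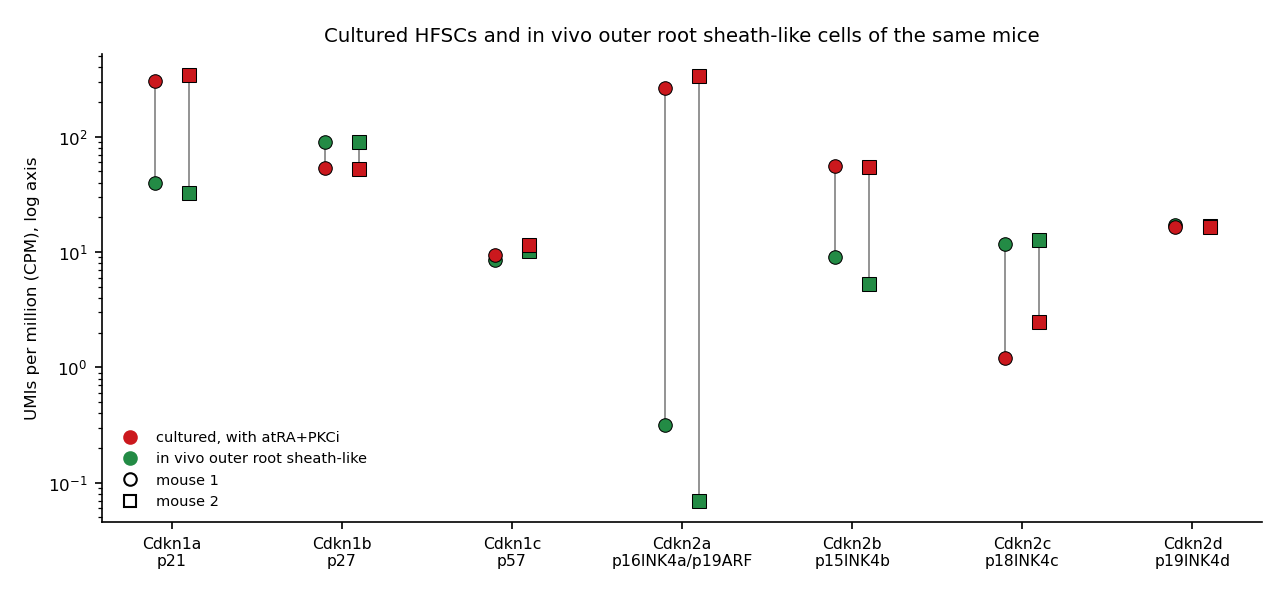
CPM on a log axis for the 7 inhibitors in cultured HFSCs with atRA+PKCi (red) and in outer root sheath-like cells of skin (green) for mouse 1 (circles) and mouse 2 (squares), joined within a mouse. The gap is widest for Cdkn2a, whose skin points rest on 3 and 1 UMIs. Cdkn2c and Cdkn1b have their red points lower in both mice, and the points of Cdkn2d nearly coincide.

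The cycle genes were lower in these cultures than in the outer root sheath. Of 20 G2/M genes 20 were lower (median -2.19, against -0.137 for all genes), as Mki67 at 9.08 and 15.4 against 109 and 148 CPM, and of 19 G1/S genes 18 were lower (median -2.16). Few cultured cells had 5 or more cycle UMIs when thinned (4 of 192 in mouse 1 and 2 of 55 in mouse 2), too few to set the inhibitors against the cycle. In the lower ranges Cdkn2a was at 250 and 296 CPM in cells without cycle UMIs and at 279 and 210 in cells with 1 to 4, with no order shared by both mice.

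Of the 21 genes of the p53 list, 13 were higher and 3 lower in culture (median 0.77), and under library sizes 8 were higher and 4 lower (median 0.36, against -0.56 for all genes). Ccng1 was at 115 and 142 against 17.0 and 17.7 CPM, and Mdm2 at 66.7 and 90.8 against 39.1 and 47.3 CPM. Btg2, an antiproliferative p53 target, was lower, at 106 and 86.9 against 1045 and 624 CPM. Among 18 regulators of the Ink4/Arf locus, 4 were higher and 4 lower (median -0.20), and under library sizes 3 were higher and 8 lower (median -0.63). Both lists stand against 25.1% of all genes higher and 32.4% lower with TMM scaling (median -0.137). Hmga2 was at 146 and 152 against 0.637 and 1.05 CPM and Id1 at 608 and 500.3 against 103 and 96.0 CPM, so that both of these were high in the cultured cells together with Cdkn2a. Most of these cultured cells had been given BMP2/4, and its part in the Id1 level was not tested. Ccnd1 was at 386 and 503 against 169 and 151 CPM, and Cdk4 did not pass (log2 0.35, adjusted p = 0.16).

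Of 16 tested senescence-associated secretory genes, 7 were higher and 3 lower in culture (median 0.87). Il1a, an interleukin, was at 26.5 and 19.4 CPM in culture and at 0 in the outer root sheath of both mice, and Igfbp4, an IGF binding protein, at 0 in culture and 285 and 286 CPM in skin. Hmgb2 and Lmnb1 were lower (3.59-fold and 2.41-fold), and Hmgb1 did not pass, while under library sizes all 3 nuclear proteins were lower (median -1.68). All 20 G2/M genes were lower in culture as well, and the part of cycling cells in these differences was not tested. Of 10 tested HFSC quiescence genes, 1 was higher and 6 were lower, among them Lhx2, at 0.303 and 0 against 129 and 127 CPM. The outer root sheath-like cells carried fibroblast markers (1977 and 3102 CPM summed, Col3a1 most abundant, none at 0) and mural markers (1198 and 920 CPM, Tagln most abundant), against 1.36 and 1.99 CPM and 19.7 and 20.4 CPM in culture, with 5 of 6 fibroblast markers at 0 there. The part of these cells or of free RNA in the differences was not tested. Cdkn2a was at 0.520 and 1.06 CPM in fibroblast-like cells and at 4.35 and 1.92 CPM in mural-like cells of skin.

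Among the culture conditions, none of the 5 members tested passed in the 3 contrasts run, and Rspo alone was in no contrast. In all, 5 conditions had at least 5 cells in both mice, and 5 members passed the filter on low counts (all but Cdkn1c and Cdkn2c). Adding BMP2/4 and atRA+PKCi to B-27 medium, which covers several agents at once, gave 0 of 5 calls among members, against 10.4% of 6265 genes (1.53% higher and 8.84% lower, and 24.1% at an unadjusted p under 0.05). Cdkn2a was at 116 and 128 CPM in B-27 (5 and 10 cells) and 305 and 266 CPM with BMP2/4, with both B-27 sums below both others, and the difference did not pass (log2 1.34, SE 0.636, adjusted p = 0.205). Without the filter on low counts Cdkn1c was called in this contrast (adjusted p = 0.045), with B-27 at 0 UMIs in both mice. Cdkn1a was at 296 and 95.6 CPM in B-27 and 295 and 237 CPM with BMP2/4, with the mice apart in B-27 (log2 0.61, adjusted p = 0.515). In B-27 a single cell held 32 of 56 (mouse 1) and 8 of 21 (mouse 2) Cdkn1a UMIs. For Cdkn2a it was 19 of 22 and 18 of 28 UMIs.

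Adding Rspo, an agonist of WNT signalling, to BMP2/4 gave 0 calls among all 6265 genes by edgeR (44 genes, 0.702%, at an unadjusted p under 0.05), and adding the retinoic acid receptor inhibitor RARi gave 0 as well (232 genes, 3.70%). In mouse 2 the sums held 13 cells for BMP2/4 and 27 for Rspo+BMP2/4. With so few cells, 0 calls do not show that genes stayed unchanged. Cdkn2a was at 215 and 386 CPM with Rspo+BMP2/4 and at 83.2 and 385 CPM with RARi added (5 and 21 cells), with the mice far apart under RARi. Cdkn1a was at 310 and 368 CPM with Rspo+BMP2/4 and 260 and 405 CPM with RARi.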

How the data were processed

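Of the 27 samples of the series, 8 RNA-seq libraries and the single cell samples (2 skins, 2 cultures with their tag libraries) were used, and the chromatin libraries were not analysed here. The authors deposited estimated counts per gene from Salmon 1.4.0, with a second table of normalized counts (unit signal, scaling not given in the sources used here). Estimated counts were rounded and tested with edgeR 4.0.16 (TMM, quasi-likelihood) over 15965 of 51906 genes, all 8 libraries in 1 fit. DESeq2 1.42.0 and limma 3.58.1 served as alternatives. Single cell UMI counts deposited by the authors came from Cell Ranger (7.0.1 per the labels, 7.0.0 in the matrix header), before their removal of ambient RNA and doublets. Cells with at least 500 genes, 1000 UMIs and under 10% mitochondrial UMIs were kept, tags were called with Seurat 5.3.0 and skin was clustered with scanpy 1.11.5 (resolution 0.5) after removal of called doublets (833 and 307). Sums per mouse were tested with edgeR, and intervals cover counting error only.

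Mice are paired by number, since 1 mouse gave both media within a genotype and both skin and culture. Deviations of paired libraries correlated at r = 0.112 in wild-type and -0.00219 in Rxra cKO, and between -0.292 and 0.25 over 10 culture pairs. The members, gene lists and tests were chosen with earlier results of these data known. Named genes are all members, fixed indicators and, per list, up to 2 called genes at each end with a mean of at least 10 CPM. Other genes named were chosen after their values were seen.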

Additional observations from a re-analysis of the deposited data

Results flagged for a closer look

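The medium effect differed between genotypes for 5 of the 7 inhibitors, by the interaction term of edgeR's quasi-likelihood test over all 8 libraries (2 per group), against 24.6% of all genes, and for 4 to 6 when each library was left out in turn. The values are the log2 effect of atRA+PKCi against FBS in Rxra cKO minus that in wild-type. The difference was 0.83 for Cdkn1a (adjusted p = 0.000589), whose direction was opposite in the 2 genotypes. It was -0.47 for Cdkn1b (adjusted p = 0.00901), which lost its call without Rxra cKO atRA+PKCi replicate 2 or wild-type atRA+PKCi replicate 1 (adjusted p = 0.0576 and 0.0504), and -1.05 for Cdkn1c (adjusted p = 0.00241). It was 0.91 for Cdkn2a (adjusted p = 0.00135) and 0.97 for Cdkn2b (adjusted p = 0.000203). Since each genotype stands for 2 mice, a difference between lines cannot be told apart from one of genotype.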

How the results depend on the processing

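No member changed direction while called under any alternative run. Of 5 members called in the wild-type medium comparison, 3 were called with limma on the deposited normalized counts, at a pseudocount of 1 and of 0.5. With calls limited to an adjusted p under 0.01 and a log2 change beyond 1 in size, there were 1 in the wild-type and 2 in the Rxra cKO medium comparison, 2 between genotypes in FBS, 4 in atRA+PKCi and 1 for the interaction, against 18.5%, 11.6%, 11%, 13.0% and 7.10% of all genes. Without a filter on low counts, 1 member, Cdkn1c, was called between BMP2/4 and B-27 (adjusted p = 0.045, B-27 at 0 UMIs). Leaving out each library in turn gave 4 to 5, 4 to 4, 5 to 5, 6 to 7 and 4 to 6 calls in the 5 RNA-seq comparisons in that order. Without wild-type FBS replicate 1, Cdkn2c was called in the wild-type medium comparison (0.64, adjusted p = 0.0435) and in the interaction (-1.02, adjusted p = 0.0353). With limma, Cdkn1a lost its call in the wild-type medium comparison (adjusted p = 0.0518), as did Cdkn1c between genotypes in atRA+PKCi (0.153) and Cdkn1b in the interaction (0.067). The cause was not tested. With the mouse as a replicate block, calls stayed at 5, 4, 5, 7 and 5 in RNA-seq and at 0 in the 3 culture contrasts, and were 5 in place of 4 between culture and skin, where Cdkn1b was added. The block changed no other call. Cdkn2d was called between culture and skin with tags assigned by share of counts (0.55, adjusted p = 0.0282). The minimum of 10 cells could be fitted only between Rspo+BMP2/4 and BMP2/4, and leaving out a mouse gave a value without a test. The class with the highest level among the 5 follicle classes was the same under all 4 alternatives for Cdkn1a, Cdkn1b, Cdkn2b, Cdkn2c and Cdkn2d, and shifted for Cdkn1c and Cdkn2a. Depth limits Cdkn2a in skin (3 and 1 UMIs in outer root sheath-like cells) and the B-27, Rspo and RARi cultures.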

Other observations

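Over the 8 RNA-seq libraries, the genes whose log2 CPM followed each inhibitor most closely were listed among 9012 genes (9013 for Cdkn2c), as a description of libraries that share mice and media. Cdkn1a was most like Fbln1, Trim29 and Ripk4 (Pearson r of 0.984, 0.983 and 0.975), Cdkn1b like Foxq1 (0.993), Cdkn1c like Nudt16 (0.997) and Cdkn2a like Tmem167b (0.995). Cdkn2b was most like Palmd (0.99), Cdkn2c like Pou2f1 (0.974) and Cdkn2d like Sqle (0.996). Among the inhibitors, Cdkn1b and Cdkn2a lay at r = -0.964, Cdkn2a and Cdkn2d at -0.942 and Cdkn1b and Cdkn2d at 0.884.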
